A study of Mus musculus with 22 samples.

Results

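The genes described here encode the enzymes that write, copy and remove DNA methylation and the factors that guard it at imprinted genes, and the measurement is the DNA methylation of these genes themselves. They were chosen by name: Dnmt1, Dnmt3a, Dnmt3b, Dnmt3l, Uhrf1, Tet1, Tet2, Tet3, Zfp57 and Trim28, which are 10 of the 36847 annotated genes. All CpGs from 5000 bp upstream of each gene to 1000 bp past its end were taken (RefSeq annotation of GRCm38, mm10). These windows held 8141 CpGs in the reference genome. With 10 or more reads required on a strand, 1684 of them were covered in any sample, 501 in at least 5 samples of each condition and 153 in all 22 samples, against 2095436, 592579 and 164017 CpGs in the whole series.

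Forebrains of wild-type C57BL/6 mouse embryos were collected at embryonic day 10.5 (E10.5) and profiled by rapid reduced representation bisulfite sequencing (rRRBS), in which DNA is cut with MspI at CCGG sites and unmethylated cytosines are converted with bisulfite. The 6 control (Ctrl) embryos came from females injected with saline, and the 16 EtOH-exposed embryos from females given 2 subcutaneous injections of ethanol at 2.5 g/kg, 2 h apart, at E2.5, before implantation. By the study's methods, the embryos were drawn at random from those in which no malformation was seen. Each sample was 1 embryo, and per the study's methods the embryos came from 3 Ctrl and 6 EtOH-exposed litters, but the labels tie no embryo to a litter and give no sex. P-values therefore treat littermates as independent. They measure the spread between these samples, except for those of the logistic tests, which estimate no such spread.

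DNMT1 copies methylation to the new strand after replication and is brought to hemimethylated CpGs by UHRF1. DNMT3A and DNMT3B add methylation to unmethylated DNA, and DNMT3L, which has no catalytic activity of its own, stimulates them, above all in germ cells. The TET dioxygenases oxidise 5-methylcytosine and so start its removal. ZFP57 is a KRAB zinc finger protein that binds imprinting control regions in the early embryo and recruits the corepressor TRIM28 (KAP1), which keeps their methylation through the reprogramming before implantation, the period of the exposure. Several of these genes have alternative starts: Dnmt1 has an oocyte start upstream of its somatic starts, Dnmt3a has an internal start for a shorter form (Dnmt3a2), and Tet3 has a start upstream of another one.

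Summed over all CpGs, a Ctrl file held 68126469 to 132488556 calls and an EtOH-exposed file 89179413 to 216223892. Libraries differed in the level at unmethylated DNA. At 39343 tiles of 100 bp whose median over samples was under 1%, the level was 0.683 to 1.57% in Ctrl samples and 0.272 to 2.59% in EtOH-exposed samples, with EtOH-exposed samples 4, 5 and 6 highest (2.44 to 2.59%). These 3 libraries also had the lowest levels at methylated CpGs of the whole series (79.9 to 80.6%, against 82.0 to 88.6% in the other 19), so some of the differences are also given without them. No pair of samples looked like the same library deposited more than once: the smallest mean chi-square of the 231 pairs, over 20234 CpGs, was 1.47. Promoters of the forebrain transcription factors Emx2, Lhx2 and Pax6 lay at 0.588 to 2.42%, and those of 6 germ cell genes at 64.2 to 95.7% in Ctrl samples, but the promoters of the blood and endothelial genes Tal1 and Cd34 lay at 0.947 to 1.53% as well, so methylation at these promoters does not identify the tissue.

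To describe the methylation of these genes in the forebrain, CpGs were sorted by level, the percent of reads that were methylated, averaged over all samples of both groups that had a value. The genes were methylated in a bimodal way: 358 of the 501 CpGs (71.5%) lay under 10%, 124 (24.8%) at 80% or more and only 19 (3.79%) between. By the means of Ctrl samples alone the counts were 357, 126 and 18. Over all CpGs of the series the shares were 64.6%, 26.2% and 9.27%. Among these 501 CpGs, those in promoter windows all lay under 10%, and those in gene bodies fell in all 3 classes. A promoter window spans the 1000 bp before a start and the 100 bp after it. The 233 of the 501 CpGs in promoter windows of the member genes lay between 0.314 and 2.58%. By the means of Ctrl samples alone they lay between 0 and 4.68%. Of the 226 CpGs inside the genes and outside promoter windows (gene body), 119 lay at 80% or more, 90 under 10% and 17 between. The number of CpGs in at least 5 samples per condition was 111 in Tet3, 91 in Dnmt3a, 65 in Dnmt1, 59 in Uhrf1, 57 in Tet1, 46 in Tet2, 40 in Dnmt3b, 22 in Trim28, 10 in Zfp57 and 0 in Dnmt3l. The annotation gave the genes 26 separate starts, 18 of them in curated transcripts, after starts within 500 bp were merged. Of the 26 windows, 11 held CpGs in at least 5 samples per condition, with 2.17 to 8.17 CpGs per 100 bp. The other 15 held 0.182 to 4.72 CpGs per 100 bp, and their methylation is known from few samples or not at all. Where Ctrl samples were read there, the windows lay between 2.62% of pooled reads (a predicted start of Dnmt3a) and 84.7% (a start of Dnmt3l).

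**Figure D1:**
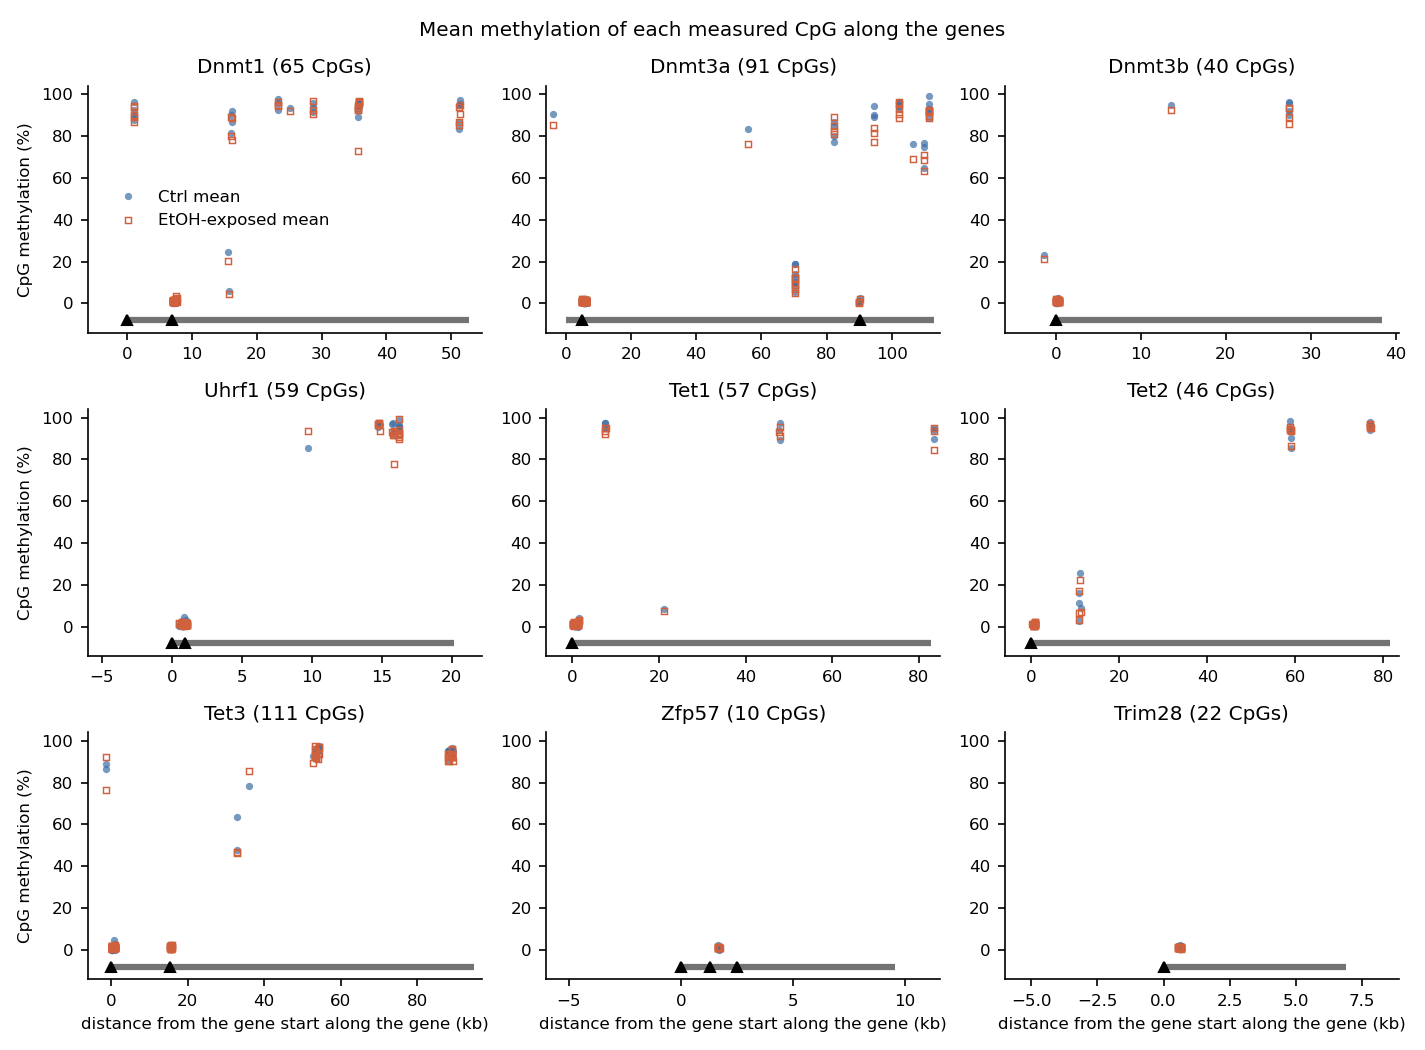
Methylation level in percent (vertical axis) of each CpG measured in at least 5 samples per condition, as the mean of Ctrl and of EtOH-exposed samples, against the distance from the gene's first start in kb (horizontal axis), with 1 panel for each of the 9 genes with such CpGs. Triangles mark curated starts and the grey bar the gene. CpGs in promoter windows lie close to 0% and most CpGs farther inside the genes at 80% or more. The window of the Dnmt1 oocyte start has no measured CpG, and the CpGs nearest to this start lie at 80% or more. The group means lie apart at some CpGs, such as that of Tet3 at a CCGG site in intron 3 (63.5% in Ctrl, 46.3% in EtOH-exposed samples).

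The sequences below, from in or near the promoters, are shown because all of their measured CpGs were unmethylated on average, with the exception of the Dnmt1 oocyte start, where none was measured. Those of Dnmt3b and Tet1 lie in intron 1 just past the promoter window and that of Trim28 in exon 1, inside the promoter window of another gene. They are the GRCm38 reference, read 5′ to 3′ along the gene, in lower case. Capitals mark the CpGs with at least 10 reads in at least 5 samples per condition.
Dnmt1 between the somatic first exons, chr9:20952624-20952707, minus strand: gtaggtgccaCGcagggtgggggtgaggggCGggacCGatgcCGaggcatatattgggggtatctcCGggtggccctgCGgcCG
Dnmt1 before the oocyte start, chr9:20959889-20959988, minus strand: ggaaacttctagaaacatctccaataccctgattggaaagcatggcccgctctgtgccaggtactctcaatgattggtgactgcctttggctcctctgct
Uhrf1 before its downstream starts, chr17:56304001-56304200, plus strand: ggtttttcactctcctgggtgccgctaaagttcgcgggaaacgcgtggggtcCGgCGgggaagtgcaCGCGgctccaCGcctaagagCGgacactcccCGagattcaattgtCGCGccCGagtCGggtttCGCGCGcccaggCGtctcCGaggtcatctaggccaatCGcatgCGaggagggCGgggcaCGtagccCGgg
Dnmt3a before the start of the shorter form, chr12:3891601-3891743, plus strand: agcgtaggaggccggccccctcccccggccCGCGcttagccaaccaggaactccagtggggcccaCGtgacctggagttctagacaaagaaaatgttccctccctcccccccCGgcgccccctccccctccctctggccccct
Dnmt3b intron 1, chr2:153649741-153649840, plus strand: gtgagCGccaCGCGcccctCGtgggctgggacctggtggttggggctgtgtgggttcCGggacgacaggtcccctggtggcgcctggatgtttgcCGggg
Tet1 intron 1, chr10:62886801-62887000, minus strand: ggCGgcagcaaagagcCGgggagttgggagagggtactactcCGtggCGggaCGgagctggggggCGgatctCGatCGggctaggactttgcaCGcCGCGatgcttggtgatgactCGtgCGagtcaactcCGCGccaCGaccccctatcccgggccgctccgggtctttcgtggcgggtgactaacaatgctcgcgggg
Zfp57 between starts, chr17:37002797-37002900, plus strand: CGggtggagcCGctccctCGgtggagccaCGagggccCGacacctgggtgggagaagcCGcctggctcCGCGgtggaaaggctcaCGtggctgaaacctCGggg
Trim28 coding exon 1, chr7:13024719-13024828, plus strand: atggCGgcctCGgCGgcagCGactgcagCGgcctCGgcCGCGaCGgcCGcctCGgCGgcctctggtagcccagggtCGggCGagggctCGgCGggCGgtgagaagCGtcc
The 7 CpGs of the Dnmt1 stretch lay at 0.725 to 1.83%, the 21 of Uhrf1 at 0.314 to 2.58%, the 4 of Dnmt3a at 0.546 to 2.33%, the 6 of Dnmt3b at 0.668 to 1.45%, the 16 of Tet1 at 0.738 to 1.44%, the 10 of Zfp57 at 0.597 to 1.42% and the 18 of Trim28 at 0.575 to 1.32%. The stretch before the oocyte start holds 1 CpG and 0 CCGG sites.

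To ask whether ethanol exposure altered these genes anywhere, 100 bp tiles with at least 2 CpGs and at least 5 samples per condition were tested with a logistic likelihood-ratio test of methylated and unmethylated reads. A tile was called where its adjusted p (q, over all 114430 tiles) was under 0.01 and the group levels, weighted by coverage, lay 10 or more percentage points apart. None of the 96 tiles of the 10 genes was called, where 1.14% of all tiles were (1299), and 1.08% as lower in EtOH-exposed samples (1240). Coverage-weighted differences, EtOH-exposed minus Ctrl, ran from -2.99 to 1.52 percentage points in the 96 tiles, with a median of 0.0773, and from -49.4 to 27.4 over all tiles, with a median of -0.127. Tested 1 CpG at a time, 0 of the 501 CpGs were called, where 1.42% of all CpGs were (8390). At q under 0.01 alone, 17 of the 96 tiles passed, where 21.8% of all tiles did. This test estimates no spread between embryos, and 16 of the 17 lay at promoter-like levels of 0.712 to 1.2%, with differences of -0.607 to 1.52 points. With the spread between embryos estimated for each tile (overdispersion F test), 2 of the 96 tiles had an unadjusted p under 0.05 (5.77% of all tiles did) and 0 were called, and with limma 1 of the 96 had, in Uhrf1 (4.45% of all), and 0 were called. Neither test called any tile of the series (0.00% for both, 0 of 114430), so that the count of 0 is no feature of these genes. The 2 tiles were in intron 1 of Uhrf1 (chr17:56303801-56303900, weighted difference 1.29 points) and in intron 1 of Dnmt3a (chr12:3807901-3808000, 1.09 points), both with mean levels near 1%. Tiles had at least 20 reads per sample, and the median over tiles of their median reads was 468. Unweighted differences, in which each sample counts alike, ran from -9.72 points in coding exon 8 of Dnmt3a to 8.04 in coding exon 4 of Tet3. Among the 40 tiles at 10% or more, where a loss of 10 points was possible, its 95% interval excluded such a loss in 33 and lay within 10 points of 0 on either side in 32. It excluded 0 in 1 of the 96 tiles, in intron 16 of Dnmt1, described with that gene.

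By class, 56 of the 96 tiles lay under 10% (58.3%, against 53% of all tiles), 35 at 80% or more (36.5%, against 35.8%) and 5 between (5.21%, against 11.2%). In the whole series 9.52% of the intermediate tiles were called and 0.176% of those at 80% or more. By position, 20 of the 96 lay in coding exons, 56 in introns, 10 in untranslated exons and 10 outside curated transcripts. Of the 56 unmethylated tiles, 55 lay within 2000 bp of a curated start, and the other was in intron 4 of Dnmt3a. Of the 35 methylated tiles, 2 lay within 2000 bp of a curated start, both in Dnmt1 between the oocyte and the somatic starts.

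For promoters and gene bodies, reads were summed over a fixed set of CpGs measured in all 22 samples and tested with limma over all genes. Of the member genes, 4 promoters and 4 gene bodies had at least 3 such CpGs. None of the 4 promoters passed an adjusted p of 0.05 (background 0.00%, 0 of 6234, with 42 at an unadjusted p under 0.05, 0.674%), with an adjusted p of 0.998 for each. None of the 4 gene bodies passed either (background 0.00%, 0 of 6845, with 1035 at an unadjusted p under 0.05, 962 of them, 14.1% of all, lower in EtOH-exposed samples), with adjusted p-values from limma of 0.368 to 0.966. None of these 8 regions had an unadjusted p under 0.05 by limma or by an exact permutation test of the per-embryo levels.

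Among the maintenance genes, Dnmt1 was measured at its somatic promoter, in its body and upstream. At the somatic promoter (starts chr9:20952623-20952979) the level over 28 CpGs averaged 0.976% ± 0.516 (SD, n = 6) in Ctrl and 0.936% ± 0.749 (SD, n = 16) in EtOH-exposed samples. The Ctrl range was 0.472 to 1.79%, with a median of 0.765%, and EtOH-exposed samples ran from 0.0997 to 2.46%, with a median of 0.863%. EtOH-exposed samples 4, 5 and 6 were the highest of all samples, at 2.32%, 2.46% and 2.07%. The groups overlapped over the whole Ctrl range (difference -0.0394 points, 95% interval -0.725 to 0.657, exact permutation p = 0.907). A further start 3′ of these, in a predicted transcript (chr9:20951909), had 3 CpGs at 0.822% ± 0.651 in Ctrl and 1.79% ± 1.65 in EtOH-exposed samples (exact permutation p = 0.191). The window of the oocyte start (chr9:20959888) held 13 CpGs and 0 CCGG sites, and none of its CpGs reached 10 reads in any sample, so the methylation of the oocyte promoter was not analysed here.

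Between the oocyte and the somatic starts DNA was methylated. The tile chr9:20958801-20958900, in intron 1 and 1037 bp from the oocyte start, lay at 90.9% ± 5.18 (SD, n = 5) in Ctrl and 89.2% ± 3.32 (SD, n = 14) in EtOH-exposed samples, with an exact permutation p of 0.410. Its neighbour chr9:20958701-20958800 lay at 91.6% and 91.1%. Upstream of the gene, 12 CpGs measured in 1 Ctrl and 2 EtOH-exposed samples lay at 91.3% and 89.9% of pooled reads. Inside the gene, a CpG at chr9:20944235, at a CCGG site, had an intermediate level of 24.6% ± 8.87 in 6 Ctrl samples (12.3 to 34.6%) and 20.1% ± 5.19 in 16 EtOH-exposed samples (12.7 to 30.8%), with no EtOH-exposed sample below the Ctrl range.

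Over 10 body CpGs measured in all samples Dnmt1 lay at 87.0% ± 1.59 (SD, n = 6) in Ctrl and 86.7% ± 1.42 (SD, n = 16) in EtOH-exposed samples. The Ctrl values spanned 84.9 to 88.4%, with a median of 87.6%, and those of EtOH-exposed samples 83.9 to 88.5%, with a median of 86.9%. The difference was -0.355 points (95% interval -1.81 to 1.11, exact permutation p = 0.616). These CpGs include chr9:20908571, described below, and EtOH-exposed samples 4, 5 and 6 were the lowest of their group. Over 32 body CpGs in at least 5 samples per condition Dnmt1 lay at 87.7% in Ctrl and 86.0% in EtOH-exposed samples. That difference was -1.72 points (95% interval -4.57 to 1.04, exact permutation p = 0.224), -1.44 CpG by CpG and -0.776 without EtOH-exposed samples 4, 5 and 6. The tile of Dnmt1 with the largest weighted difference, chr9:20908501-20908600 in coding exon 37 of 39, lay at 96.0% ± 0.947 in Ctrl (95.2 to 97.6%, median 95.6%) and 93.4% ± 4.37 in EtOH-exposed samples (84.8 to 97.8%, median 94.8%). EtOH-exposed samples 4, 5 and 6 lay at 84.9%, 84.8% and 85.3%, and the other 19 samples of both groups at 92.9 to 97.8%. The weighted difference was -2.58 points (q = 1.4e-05 by the logistic test, p = 0.116 with overdispersion, exact permutation p = 0.190), and -0.43 points without EtOH-exposed samples 4, 5 and 6.

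At 1 CpG of the exon 37 tile, chr9:20908571, EtOH-exposed samples 4, 5 and 6 were low. It is at a CCGG site 1365 bp from the end of the gene. The tile holds 7 CpGs in the reference, and on the forward strand alone its weighted difference was -1.1 points. The part of each CpG in the tile level was not tested. The sequence around chr9:20908571 is shown, and this CpG is the capital CG listed second below. Capitals mark measured CpGs.
Dnmt1 coding exon 37, chr9:20908541-20908600, minus strand: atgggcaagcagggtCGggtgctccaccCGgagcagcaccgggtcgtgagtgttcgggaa
In the order printed the 2 marked CpGs lay at 95.2% and 92.5% over all samples. With both strands added, EtOH-exposed samples 4, 5 and 6 lay at 68.1%, 68.0% and 60.3% at chr9:20908571, and the other 19 samples at 92.3 to 100%. On the forward strand all 22 samples lay at 92.3 to 100%, with 12 to 203 reads. On the reverse strand, at least 10 reads were found in these 3 samples only, 46, 32 and 48 reads with 17.4%, 6.25% and 4.17% methylated, and the others had at most 8. Of the other 19, 5 had any reverse-strand read: none was methylated in EtOH-exposed samples 11, 14 and 15 (5, 3 and 1 reads), and all were in EtOH-exposed sample 8 (8 reads) and Ctrl sample 2 (1 read). On the forward strand the 3 samples lay within the range of the others. In the whole series, strands differed by at least 50 points at 0.319 to 0.504% of CpGs read on both strands in these 3 samples and at 0.0879 to 0.266% in the other 19. In the member genes this was the case at 6 of 2010 pairs of strands in these 3 samples and at 1 of 6959 in the others. The other 4 of the 7 lay in Dnmt3a (2), Tet1 and Tet2. This CpG was singled out after its values had been seen.

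**Figure D2:**
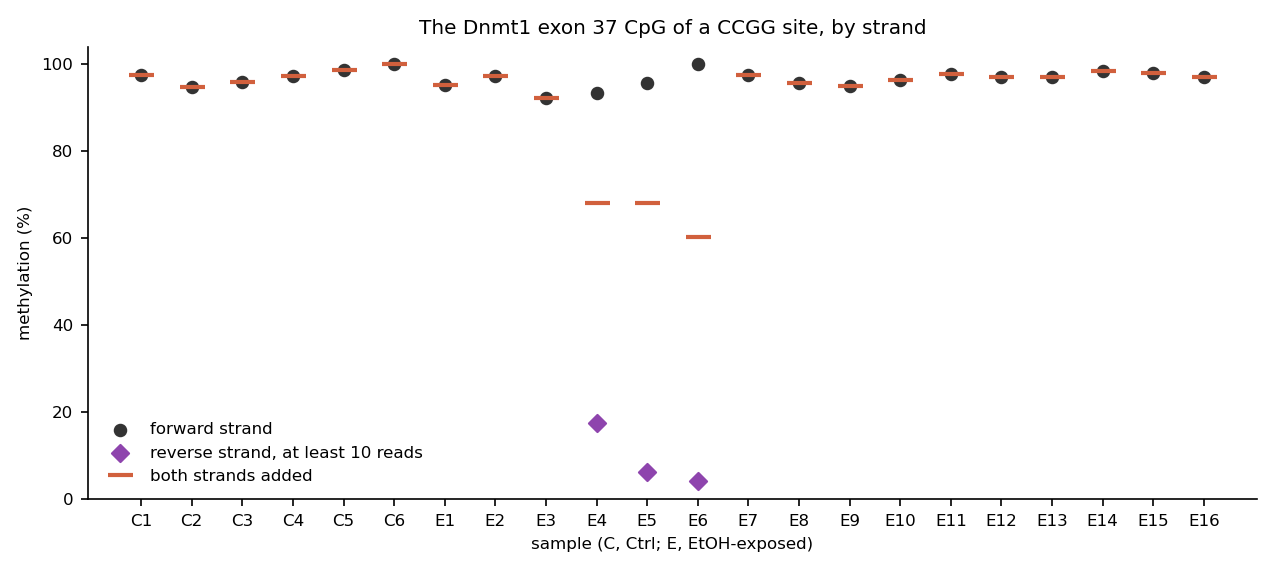
Methylation level in percent (vertical axis) of the Dnmt1 CpG chr9:20908571 in each of the 22 samples (horizontal axis), by strand and for both strands added. The forward strand lies at 92.3 to 100% in every sample, and reverse-strand values with at least 10 reads exist in EtOH-exposed samples 4, 5 and 6 only, at 4.17 to 17.4%.

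In the other direction, the tile chr9:20924101-20924200 in intron 16 of Dnmt1 lay at 95% ± 0.774 in Ctrl (93.7 to 96.0%) and 96.4% ± 1.46 in EtOH-exposed samples (94.4 to 99.3%). EtOH-exposed samples 4, 5 and 6 again stood apart, here at 98.7 to 99.3%, above all other samples. It was the tile whose interval excluded 0 (unweighted difference 1.34 points, 95% interval 0.0441 to 2.67, exact permutation p = 0.0428, not adjusted for the 96 tiles). Without EtOH-exposed samples 4, 5 and 6 the unweighted difference was 0.744 points (exact permutation p = 0.0681), and over all samples its weighted difference did not pass (0.578 points, q = 0.235). Of 18 methylated member tiles with values in these 3 samples, 2 had all 3 below every other sample (10.4% of such tiles in the series) and the tile in intron 16 had all 3 above (0.201% in the series). The other tile below was in the last exon of Dnmt3a (chr12:3913101-3913200, 80 to 85.9% in the 3 samples and at least 86.2% in the others). A CpG near the intron 16 tile, chr9:20924332, at a CCGG site and read on the reverse strand only, lay at 89.2% ± 6.91 in 5 Ctrl samples (82.9 to 100%) and 73.1% ± 18.2 in 9 EtOH-exposed samples (50 to 94.2%), with 5 of the 9 below every Ctrl sample and 12 to 156 reads a sample. In intron 1, the tile chr9:20943701-20943800 had 4 of 13 EtOH-exposed samples below the Ctrl range of 87.6 to 92.7%, samples 14, 2, 8 and 9 at 60.6%, 75%, 84.6% and 86.8%. EtOH-exposed samples also lay above this range, up to 100% (unweighted difference -3.17 points, exact permutation p = 0.518).

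Uhrf1, the partner that brings DNMT1 to newly replicated DNA, was unmethylated at its downstream starts (chr17:56304245-56304313) and methylated in its body. Over 36 promoter CpGs in at least 5 samples per condition, Ctrl samples lay at 1.21% ± 1.03 (0.440 to 3.26%, median 0.844%) and EtOH-exposed samples at 1.15% ± 1.01 (0.179 to 2.83%, median 0.994%, exact permutation p = 0.917). The 3.26% was Ctrl sample 2, in which 14 of the 36 CpGs were measured. At the upstream start (chr17:56303337-56303342) 14 CpGs were read in 3 Ctrl and 7 EtOH-exposed samples, at 7.29% and 12.1% of pooled reads, with single samples from 0 to 20%. Upstream of the gene, 8 CpGs at the promoter of the neighbour Arrdc5 lay at 91.6% in 4 Ctrl and 92.9% in 5 EtOH-exposed samples.

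Over 23 body CpGs in at least 5 samples per condition Uhrf1 lay at 83.7% ± 6.04 in Ctrl (77.6 to 95.3%, median 82.3%) and 75.2% ± 13.9 in EtOH-exposed samples (27.2 to 82.7%, median 79.8%). The difference of -8.45 points did not pass (95% interval -20.5 to 3.56, exact permutation p = 0.149, adjusted p = 0.268 by limma), and CpG by CpG it was -1.43. EtOH-exposed samples 4, 5 and 6 were lowest, at 63.2%, 27.2% and 67.3%, with 9, 4 and 9 of the 23 CpGs measured, 6, 1 and 6 of them among the 20 methylated ones. Without these 3 samples the difference was -3.22 points (exact permutation p = 0.058). Ctrl sample 6, at 95.3%, had 20 of the 23 CpGs, all 20 of them methylated ones. With Ctrl sample 6 left out and all EtOH-exposed samples kept, the difference was -6.12 points (exact permutation p = 0.31). In the Uhrf1 body the tile with the largest weighted difference was chr17:56319201-56319300 in intron 13. The 5 Ctrl samples with values lay at 96.3%, 90.1%, 90.4%, 88.6% and 96.1% (samples 1, 3, 4, 5 and 6), and 12 EtOH-exposed samples at 72.2 to 95.7%, with a median of 87.2%. Of these, 6 lay below every Ctrl sample and none above. The weighted difference was -1.87 points and the unweighted one -7.62 (95% interval -15.7 to 0.44, exact permutation p = 0.0617). Leaving out 1 sample gave weighted differences from -4.92 points (without EtOH-exposed sample 1) to -1.21 (without EtOH-exposed sample 7), and the value was -6.46 with only the EtOH-exposed samples of the library group of the controls, which is described with the spread between embryos. The tile holds 2 CpGs. The CpG at the CCGG site (chr17:56319210) was read on the reverse strand only, with 12 to 235 reads a sample. This CpG lay at 91.5% ± 3.89 and 77.6% ± 12.3, with 9 of 12 EtOH-exposed samples below all Ctrl samples. Its neighbour chr17:56319206 lay at 92.9% ± 3.96 and 91.8% ± 5.57, with 2 of 12 below.

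Among the de novo enzymes, Dnmt3a was unmethylated at both of its main starts. Over 16 CpGs measured in all samples at the promoter of the full-length form (starts chr12:3806474-3807160), Ctrl samples lay at 0.771% ± 0.368 (SD, n = 6) and EtOH-exposed samples at 0.890% ± 0.741 (SD, n = 16). Ctrl samples ran from 0.217 to 1.2%, with a median of 0.878%, and EtOH-exposed samples from 0.0786 to 2.37%, with a median of 0.711%, a difference of 0.119 points (95% interval -0.529 to 0.788, exact permutation p = 0.713). The promoter of the shorter form (start chr12:3891744) lay at 1.35% ± 0.762 in 5 Ctrl samples and 0.955% ± 0.960 in 16 EtOH-exposed samples over 4 CpGs (95% interval of the difference -1.39 to 0.572, exact permutation p = 0.423). Predicted starts were covered in few samples: 7 CpGs near chr12:3809471 lay at 2.62% of pooled reads in 1 Ctrl and 4.51% in 3 EtOH-exposed samples, and 2 CpGs near chr12:3834695 at 26.5% in 2 Ctrl samples.

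Intron 4 of Dnmt3a held the part of the gene with low but not absent methylation, and its sequence is shown with the measured CpGs in capitals.
Dnmt3a intron 4, chr12:3871741-3871880, plus strand: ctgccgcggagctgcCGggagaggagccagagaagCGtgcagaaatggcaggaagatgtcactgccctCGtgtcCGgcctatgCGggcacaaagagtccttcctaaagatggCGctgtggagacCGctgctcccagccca
In the order printed these 7 CpGs lay at 10.1, 13.9, 7.65, 12.4, 9.07, 4.93 and 11.4% over all samples. The tile with the largest weighted difference of the gene covers the first 2 of them (chr12:3871701-3871800). Ctrl samples 1 to 5 lay at 12.5%, 11.8%, 18.6%, 17.6% and 24.3%, and 16 EtOH-exposed samples at 3.55 to 22.2%, with a median of 10.3%. No EtOH-exposed sample lay above the Ctrl range and 10 of 16 lay below it. The difference did not pass (weighted -2.80 points, q = 0.0517, unweighted -5.92 points, 95% interval -11.9 to 0.0383, exact permutation p = 0.0513), and the weighted difference was -4.77 points without Ctrl sample 2. At the CpG chr12:3871776 of this tile the 5 Ctrl samples lay at 19% ± 5.53 and EtOH-exposed samples at 12.3% ± 7.15. The adjoining tile chr12:3871801-3871900 lay at 8.39% ± 3.16 and 8.97% ± 2.68 (exact permutation p = 0.671).

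Methylated tiles of Dnmt3a held some EtOH-exposed samples below the Ctrl range. In coding exon 8 (chr12:3896001-3896100) the 6 Ctrl samples lay at 87.5 to 96.4%, and the 6 EtOH-exposed samples with values at 95%, 89.7%, 54.2%, 94.7%, 73.3% and 89.3% (samples 1, 3, 11, 12, 13 and 15), with at least 22 reads a sample, so that 2 of 6 lay below every Ctrl sample (unweighted difference -9.72 points, weighted -0.304, exact permutation p = 0.206). In the untranslated part of exon 23 (chr12:3911501-3911600) 5 Ctrl samples lay at 67.8 to 77.9% and 9 EtOH-exposed samples at 25 to 81.8%, with a median of 73.4%. Of the 9, 3 lay below the Ctrl range (samples 6, 2 and 5 at 25%, 59.5% and 64.8%) and 2 above it. In the last exon 6 of 16 lay below every Ctrl sample at chr12:3913101-3913200 (unweighted difference -2.72 points, exact permutation p = 0.225), with a difference of -0.965 points without EtOH-exposed samples 4, 5 and 6. Upstream of the gene 2 CpGs lay at 88.4% and 82.2% of pooled reads in 5 Ctrl and 14 EtOH-exposed samples. These tiles were singled out for their spread after their values had been seen.

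Whether the body of Dnmt3a differed between the groups depended on which CpGs were used. Over the 9 CpGs measured in all 22 samples the body lay at 46.6% ± 1.76 (SD, n = 6) in Ctrl and 44.8% ± 2.69 (SD, n = 16) in EtOH-exposed samples. Ctrl samples ran from 45.1 to 49.9%, with a median of 46.2%, and EtOH-exposed samples from 40.6 to 49.6%, with a median of 45.3% (95% interval of the difference -4.28 to 0.672, exact permutation p = 0.144, adjusted p = 0.368 by limma). Over the 50 CpGs in at least 5 samples per condition it lay at 45.7% ± 11.1 in Ctrl (36.1 to 67.6%, median 42.7%) and 34.1% ± 6.08 in EtOH-exposed samples (23.0 to 44.0%, median 34%). The difference was then -11.6 points (95% interval -19.2 to -4.07, exact permutation p = 0.00216, adjusted p = 0.0827 by limma), -7.22 points without Ctrl sample 6 (exact permutation p = 0.0203) and -10.3 points without EtOH-exposed samples 4, 5 and 6 (exact permutation p = 0.00645). In this set the samples were not measured at the same CpGs: the share of measured CpGs that belong to the 23 methylated ones was 49.5% ± 14.2 in Ctrl and 37.2% ± 6.25 in EtOH-exposed samples. Ctrl sample 6, at 67.6%, had 22 of the 50 CpGs, 17 of them methylated ones, and EtOH-exposed sample 4, at 23.0%, had 36, 9 of them methylated ones. When each CpG was averaged over its own samples first and then compared, the difference was -1.86 points. At the 23 methylated CpGs it was -3.37 points (87.7% against 84.3%), and 18 of the 23 had the lower mean in EtOH-exposed samples. Methylated CpGs of the whole series were lower in EtOH-exposed samples too, by -2.76 points as the difference of per-sample means over 187256 CpGs.

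Gene bodies with CpGs in at least 5 samples per condition were tested for 7 of the genes, and none was called at an adjusted p of 0.05 by limma, where 0.717% of all gene bodies were (107 of 14923). At an unadjusted p under 0.05, 3 of the 7 passed, Dnmt3a, Dnmt3b and Tet1, all with the lower mean in EtOH-exposed samples, where 18.9% of all bodies passed with the lower mean in EtOH-exposed samples (2821). All 11 promoters tested in this way missed the threshold too, each with an adjusted p of 0.999 by limma, as did all 13374 promoters (0.00%, with 199 at an unadjusted p under 0.05, 1.49%).

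**Figure D3:**
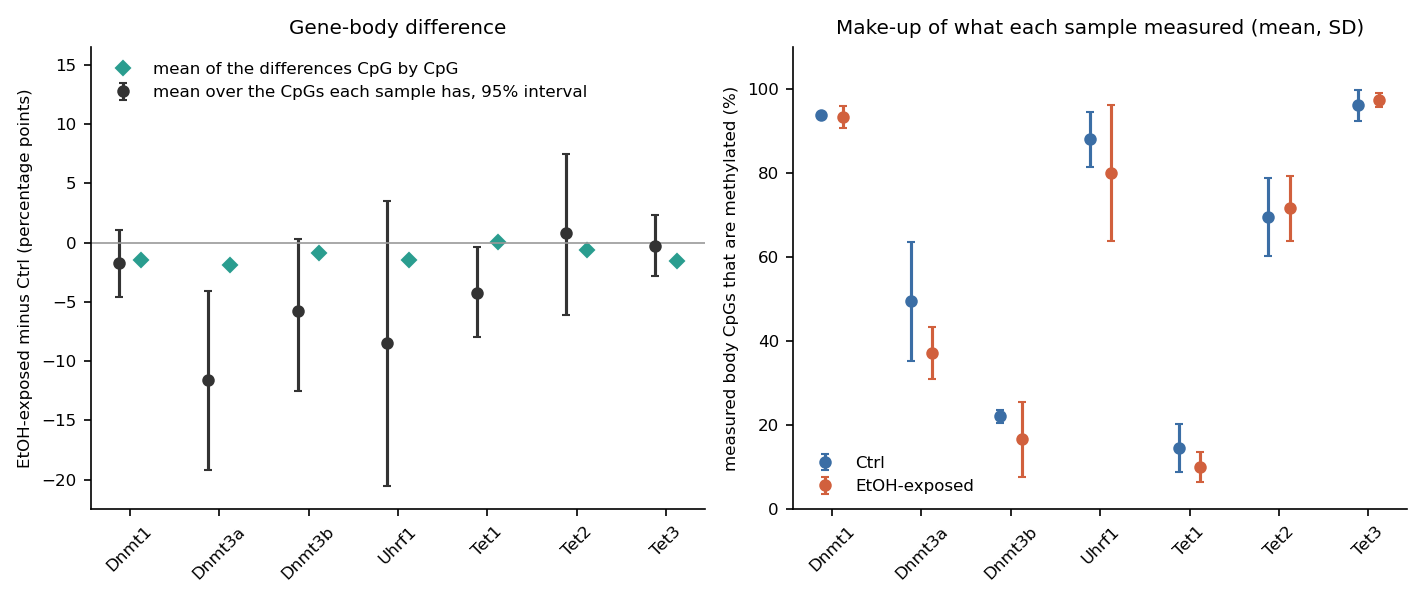
Left, the difference in gene body methylation, EtOH-exposed minus Ctrl, in percentage points (vertical axis) for the 7 genes (horizontal axis), once as the difference of per-sample means over whichever CpGs a sample had, with its 95% interval, and once CpG by CpG. Right, the percent of each sample's measured body CpGs that are methylated CpGs, as mean ± SD of Ctrl and EtOH-exposed samples. The -11.6 points of Dnmt3a become -1.86 CpG by CpG, and the share of methylated CpGs measured is lower in EtOH-exposed samples (37.2% against 49.5%).

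Dnmt3b was unmethylated at its promoter and in the start of intron 1 and methylated farther inside. Over 17 promoter CpGs (starts chr2:153649411-153649537) the 5 Ctrl samples with values lay at 0.806% ± 0.536 and the 16 EtOH-exposed samples at 1.09% ± 0.893 (95% interval of the difference -0.592 to 1.18, exact permutation p = 0.511). The 15 body CpGs in all samples belonged to the unmethylated start and lay at 1.25% ± 0.309 and 1.0% ± 0.953 (exact permutation p = 0.543). Ctrl samples ran from 1.01 to 1.68%, with a median of 1.08%, and EtOH-exposed samples from 0.0599 to 3.09%, with a median of 0.746%, with EtOH-exposed samples 4, 5 and 6 highest at 2.40, 2.74 and 3.09%. Without these 3 samples the difference was -0.654 points, with an exact permutation p of 0.00446, beside a low level at unmethylated DNA in the libraries of EtOH-exposed samples 1, 2, 3, 9, 12 and 14 (0.272 to 0.334%), and with these 6 samples left out too it was -0.339 points (exact permutation p = 0.0833).

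The 22 body CpGs of Dnmt3b in at least 5 samples per condition gave 21.8% ± 1.21 in Ctrl and 16% ± 7.62 in EtOH-exposed samples (exact permutation p = 0.0739), with a difference of -5.79 points, and of -3.71 without EtOH-exposed samples 4, 5 and 6 (exact permutation p = 0.283). The EtOH-exposed samples formed a low and a high set: samples 4, 5, 6, 11, 14 and 16 lay at 6.03 to 7.53%, and the other 10 at 19.3 to 23.2%, where Ctrl samples lay at 19.4 to 22.7%. Each of the 6 low samples had 1 of the 5 methylated CpGs measured, and every other sample had 4 or 5. At the 5 methylated CpGs themselves the mean was 93.9% in Ctrl and 90.9% in EtOH-exposed samples, with differences of -6.36 to -0.955 points at the 5, and CpG by CpG over all 22 the difference was -0.901. The tile with the largest weighted difference, chr2:153676801-153676900 in intron 17, lay at 93.7% ± 1.78 in 6 Ctrl samples (91.5 to 95.5%, median 94.0%) and 90.5% ± 5.78 in 10 EtOH-exposed samples (78.0 to 96.6%, median 92.5%). EtOH-exposed samples 2 and 9 were low at 78.0% and 81.9%, and the weighted difference was -1.42 points (95% interval of the unweighted one -8.52 to 1.86, exact permutation p = 0.214). Upstream, the CpG chr2:153648013 lay at 23.1% ± 9.84 in 5 Ctrl and 21.2% ± 10.8 in 14 EtOH-exposed samples.

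Dnmt3l, the cofactor without catalytic activity, had no CpG in at least 5 samples per condition, and 63 CpGs with at least 10 reads in any sample. Of its 3 curated starts, that at chr10:78049842-78049959 was read at 9 CpGs in 1 Ctrl and 2 EtOH-exposed samples, at 84.7% and 82.1% of pooled reads, and the other two at none. The body lay at 75.0% of pooled reads in 4 Ctrl and 73.7% in 11 EtOH-exposed samples, with single samples from 41.5 to 95.2%, and 10 upstream CpGs at 91.1% and 85.7% in 2 and 4 samples. At the promoter of the neighbouring gene Aire, 25 CpGs lay at 21.3% in 1 Ctrl sample and 9.81% of pooled reads in 6 EtOH-exposed samples. With 1 or a few Ctrl samples read at different CpGs no comparison was made.

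Among the TET genes, Tet1 was unmethylated at its promoter and in the measured stretch of intron 1 next to it, and 7 of its CpGs farther in lay at 80% or more. A further CpG there (chr10:62866261) lay at 7.85%. Over 3 promoter CpGs (starts chr10:62887324-62887469) the 5 Ctrl samples with values lay at 1.01% ± 0.608 and EtOH-exposed samples at 1.05% ± 0.832 (exact permutation p = 0.908). The intron 1 stretch printed above gave 0.718% in Ctrl and 0.992% in EtOH-exposed samples. The 3 body CpGs in all samples lay at 0.873% ± 0.334 (0.538 to 1.47%, median 0.767%) and 1.47% ± 1.35 (0 to 3.97%, median 1.09%), with a 95% interval of the difference of -0.557 to 1.78 (exact permutation p = 0.314). The highest were EtOH-exposed samples 4, 6, 16 and 5, at 3.97%, 3.48%, 3.29% and 3.29%. Over 51 body CpGs in at least 5 samples per condition Ctrl samples lay at 14.8% ± 5.47 (7.72 to 24.7%, median 14.1%) and EtOH-exposed samples at 10.6% ± 3.01 (6.11 to 14.4%, median 9.37%), a difference of -4.21 points (95% interval -7.95 to -0.324, exact permutation p = 0.0279, adjusted p = 0.156 by limma) and of -5.62 without Ctrl sample 6 (exact permutation p = 0.00201). Without EtOH-exposed samples 4, 5 and 6 it was -3.54 points and did not pass (exact permutation p = 0.0737). The share of measured CpGs that were among the 7 methylated ones was 14.6% ± 5.64 and 10.1% ± 3.60, and CpG by CpG the difference was 0.0366 points. Ctrl sample 2, at 24.7%, had 16 of the 51 CpGs, 4 of them methylated ones. The tile with the largest weighted difference lay in coding exon 2 (chr10:62879801-62879900). Ctrl samples 1 to 5 lay at 96.8%, 93.3%, 98.7%, 94.1% and 98.9%, and 11 EtOH-exposed samples at 88.7 to 100%, with a median of 95.8% (weighted -1.59 points, 95% interval of the unweighted difference -7.20 to 2.07, exact permutation p = 0.253). Without Ctrl sample 2 the weighted difference was -3.33 points, and without EtOH-exposed sample 7 it was -0.845. Past the gene's end 4 CpGs lay at 93.5% and 92.4% of pooled reads, and 4 upstream CpGs at 89.3% in 1 Ctrl and 85.4% in 4 EtOH-exposed samples. At the promoter of Gm51805, inside the gene, 2 CpGs lay at 0.778% in 4 Ctrl and 2.22% in 8 EtOH-exposed samples.

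Tet2 had a single start region (chr3:133544390-133545136), unmethylated over 23 CpGs in all samples at 0.961% ± 0.392 (SD, n = 6) in Ctrl and 0.879% ± 0.709 (SD, n = 16) in EtOH-exposed samples. Ctrl samples ran from 0.524 to 1.54%, with a median of 0.818%, and EtOH-exposed samples from 0.171 to 2.48%, with a median of 0.662% (95% interval of the difference -0.712 to 0.564, exact permutation p = 0.795). The highest of all samples were EtOH-exposed samples 4, 5 and 6, at 2.48%, 1.95% and 1.85%. Over 16 body CpGs in at least 5 samples per condition the body lay at 69.8% ± 8.45 and 70.6% ± 6.33 (exact permutation p = 0.865), and its 11 methylated CpGs at 94.4% in both groups. The body difference of 0.796 points was -1.79 without Ctrl sample 6 and -0.622 CpG by CpG. In coding exon 3 (chr3:133486201-133486300) 12 of 16 EtOH-exposed samples lay above the Ctrl range of 92.7 to 94.4% and 2 below it (exact permutation p = 0.512).

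In intron 1 of Tet2, 10885 bp from the start, a stretch with intermediate methylation held the tile of the gene with the largest weighted difference, which was also the largest of all 96 tiles.
Tet2 intron 1, chr3:133534101-133534300, minus strand: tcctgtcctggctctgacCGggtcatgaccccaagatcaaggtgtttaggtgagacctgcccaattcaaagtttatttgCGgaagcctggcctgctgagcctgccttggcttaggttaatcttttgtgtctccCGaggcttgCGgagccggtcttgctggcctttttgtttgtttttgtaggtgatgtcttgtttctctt
In the order printed, the 4 measured CpGs lay at 7.60, 16.7, 3.02 and 23.1% over all samples, so that neighbouring CpGs of this stretch differed. The tile chr3:133534201-133534300 holds the first 2 of them. Ctrl samples 1, 3, 4, 5 and 6 lay at 11.5%, 12%, 16%, 14.5% and 17.6%, and 14 EtOH-exposed samples at 5.81 to 26%, with a median of 11.2%. Of these, 7 lay below every Ctrl sample and 1, sample 7, above. The weighted difference was -2.99 points and the unweighted one -2.34 (95% interval -7.22 to 2.59, exact permutation p = 0.338). With only the EtOH-exposed samples of the library group of the controls, the weighted difference turned to 0.193 points. The CpG listed last (chr3:133534157) lay at 25.6% ± 1.97 in Ctrl and 22.2% ± 7.0 in EtOH-exposed samples, with 7 of 14 below the narrow Ctrl range of 23.1 to 28.6%.

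Tet3 was measured at both of its starts. Over 18 CpGs in all samples at the upstream start region (chr6:83456214-83457208) Ctrl samples lay at 0.903% ± 0.577 (SD, n = 6) and EtOH-exposed samples at 1.11% ± 0.893 (SD, n = 16). Ctrl samples ran from 0.198 to 1.63%, with a median of 0.812%, and EtOH-exposed samples from 0.146 to 2.82%, with a median of 0.896%, a difference of 0.211 points (95% interval -0.605 to 1.04, exact permutation p = 0.60). The downstream start (chr6:83441678) lay at 1.23% ± 0.824 in 5 Ctrl and 1.16% ± 1.10 in EtOH-exposed samples over 11 CpGs (exact permutation p = 0.905), and the adjoining promoter of the B230319C09Rik at 1.25% and 1.37% of pooled reads. The 32 body CpGs in at least 5 samples per condition lay at 91.0% ± 3.02 in Ctrl (85.2 to 94.2%) and 90.8% ± 2.47 in EtOH-exposed samples (84.6 to 93.4%, exact permutation p = 0.842). The difference was -0.258 points, and 0.366 without Ctrl sample 6. CpG by CpG it was -1.55 points, and 20 of the 31 methylated CpGs had the lower mean in EtOH-exposed samples and 11 the higher. Ctrl sample 2, at 85.2%, had 9 of the 32 CpGs.

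Between its methylated tiles Tet3 had 1 tile near 50%, in intron 3 (chr6:83424201-83424300), which holds 2 CpGs.
Tet3 intron 3, chr6:83424201-83424300, minus strand: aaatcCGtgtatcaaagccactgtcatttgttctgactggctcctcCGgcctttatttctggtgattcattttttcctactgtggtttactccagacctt
In the order printed the CpGs lay at 47.1% and 51.3%. For the tile, Ctrl samples 1 to 5 lay at 58.1%, 41.8%, 51.8%, 54.8% and 67%, and 12 EtOH-exposed samples at 19.2 to 66.7%, with a median of 46.3%. No EtOH-exposed sample lay above the Ctrl range, and 5 of 12 lay below it (samples 2, 5, 8, 14 and 15). The weighted difference was -2.83 points and the unweighted one -8.34 (95% interval -22.6 to 5.91, exact permutation p = 0.232), with 24 to 279 reads a sample, and the weighted difference ran from -6.80 points without EtOH-exposed sample 12 to 0.798 without Ctrl sample 5. With only the EtOH-exposed samples of the library group of the controls it was -9.62. The CpG at the CCGG site (chr6:83424253, printed last), read on the forward strand only, lay at 63.5% ± 10.8 in Ctrl and 46.3% ± 23.0 in EtOH-exposed samples, from 15.4 to 79.5%. The other (chr6:83424294) lay at 47.8% ± 12.7 and 46.9% ± 10.4. The interval is too wide to exclude a loss of over 10 points at this tile. Low samples stood out elsewhere in Tet3. In coding exon 12 (chr6:83369001-83369100) EtOH-exposed sample 5 lay at 62.2%, where Ctrl samples lay at 89.6 to 95.5%. In this tile 3 of 15 EtOH-exposed samples lay below the Ctrl range and 5 above it (exact permutation p = 0.628). In coding exon 4 (chr6:83404601-83404700) Ctrl sample 1 lay at 50%, where the other 5 Ctrl samples lay at 88.5 to 95.2% and 11 EtOH-exposed samples at 91.5 to 96.8% (unweighted difference 8.04 points, weighted 0.579, exact permutation p = 0.0915).

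Of the 2 factors that guard imprints, Zfp57 was read in the window before the last of its 3 start regions (chr17:37003666). The CpGs in at least 5 samples per condition lay at chr17:37002797-37002900, closer to the middle starts (chr17:37002446-37002525). The windows of the first and middle starts had 0 CpGs with 10 reads in any sample. These 10 CpGs lay at 0.839% ± 0.775 in 5 Ctrl samples (0 to 2.05%, median 0.842%) and 0.973% ± 0.797 in 16 EtOH-exposed samples (0.136 to 2.37%, median 0.845%). The 95% interval of the difference was -0.717 to 0.979 points (exact permutation p = 0.742). Of its 2 tiles, chr17:37002801-37002900 had the largest weighted difference, 0.441 points (q = 0.0235), with Ctrl samples 1, 3, 4, 5 and 6 at 2.23%, 0.416%, 0.729%, 0.607% and 0%. Its body was read at 9 CpGs in 2 Ctrl and 7 EtOH-exposed samples, at 93.3% and 93.9% of pooled reads. Trim28 was read just inside the gene. None of the 52 CpGs in the window of its start (chr7:13024152) reached 10 reads in any sample, but the 22 CpGs in exon 1 did, which also lie in the promoter window of the antisense gene Gm31649. In the tile chr7:13024701-13024800 Ctrl samples lay at 0.932% ± 0.400 (0.440 to 1.35%, median 0.943%) and EtOH-exposed samples at 0.936% ± 0.740 (0.139 to 2.61%, median 0.937%), on at least 1035 reads a sample. The weighted difference was 0.0766 points (95% interval of the unweighted one -0.658 to 0.676, exact permutation p = 0.991). Past its end, 4 CpGs lay at 84% and 84.1% of pooled reads in 2 samples of each group.

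**Figure D4:**
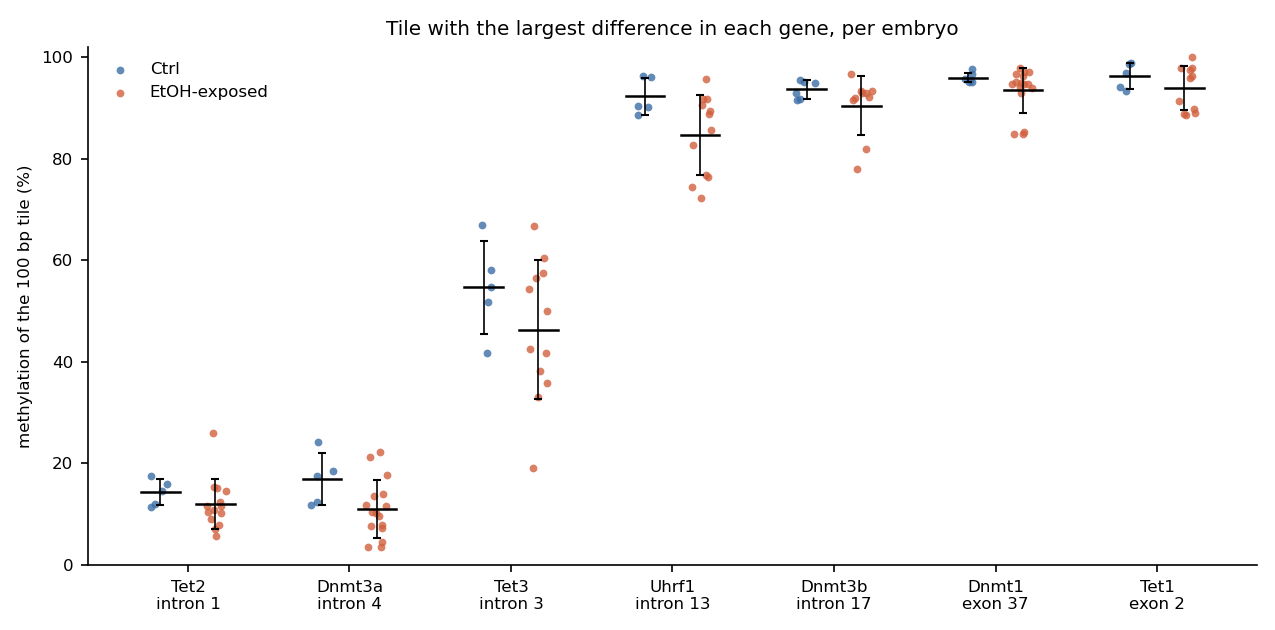
Methylation level in percent (vertical axis) of the tile with the largest weighted difference in each of 7 genes, for every Ctrl and EtOH-exposed sample with a value, with mean ± SD. The groups overlap in all 7, EtOH-exposed samples 4, 5 and 6 lie apart at 84.8 to 85.3% in Dnmt1, and the Tet3 tile spreads from 19.2 to 67%.

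To compare embryos, levels were averaged over the CpGs of these genes measured in all samples, of which Dnmt3l and Zfp57 had none. The 132 unmethylated ones, in 8 genes, lay at 1.08% ± 0.396 in Ctrl (0.787 to 1.61%) and 1.07% ± 0.777 in EtOH-exposed samples (0.290 to 2.63%, median 0.916%), and without EtOH-exposed samples 4, 5 and 6 at 0.760% ± 0.420 (exact permutation p = 0.137). The samples that stood apart did so at the unmethylated DNA of their whole libraries too: EtOH-exposed samples 4, 5 and 6 were highest at 2.63, 2.47 and 2.21%, Ctrl samples 1 and 2 lay at 1.57 and 1.61%, and EtOH-exposed samples 1, 2, 3, 9, 12 and 14 were lowest at 0.290 to 0.460%. The same samples were highest and lowest at the 126915 unmethylated CpGs of the whole series (0.464 to 2.82%). The 17 methylated ones, 9 in Dnmt1, 4 in Dnmt3a and 2 each in Tet1 and Tet3, lay at 93.4% ± 1.15 in Ctrl (91.2 to 94.6%) and 92.4% ± 1.94 in EtOH-exposed samples (88.7 to 94.8%, median 93.1%). EtOH-exposed samples 4, 5, 6 and 14 lay below every Ctrl sample, at 88.8, 88.7, 89.5 and 90.3%, and without samples 4, 5 and 6 the difference was -0.248 points in place of -1.03. The 17 include the Dnmt1 CpG chr9:20908571. Without it these 4 samples lay at 90.1, 90.0, 91.3 and 89.8%, so that sample 14 was lowest and sample 6 no longer lay below every Ctrl sample (Ctrl sample 6 at 90.6%). EtOH-exposed samples 4, 5, 6 and 14 were also the 4 lowest over the 30964 methylated CpGs of the series, at 80.6, 79.9, 80.3 and 82.0%, where Ctrl samples lay at 87.2 to 88.6%. Over 133 methylated member CpGs in at least 5 samples per condition, 10 of 16 EtOH-exposed samples lay below all Ctrl samples (92.6% ± 0.725 against 91.0% ± 1.87), 2 of them, samples 3 and 15, by little (91.8% and 91.9%, against 91.9% in Ctrl sample 6). Samples had 71 to 133 of these CpGs in Ctrl and 78 to 131 in EtOH-exposed samples, so they were not compared at the same CpGs. Over 187256 such CpGs of the series 9 of 16 EtOH-exposed samples lay below all Ctrl samples (89.1% against 86.4%).

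**Figure D5:**
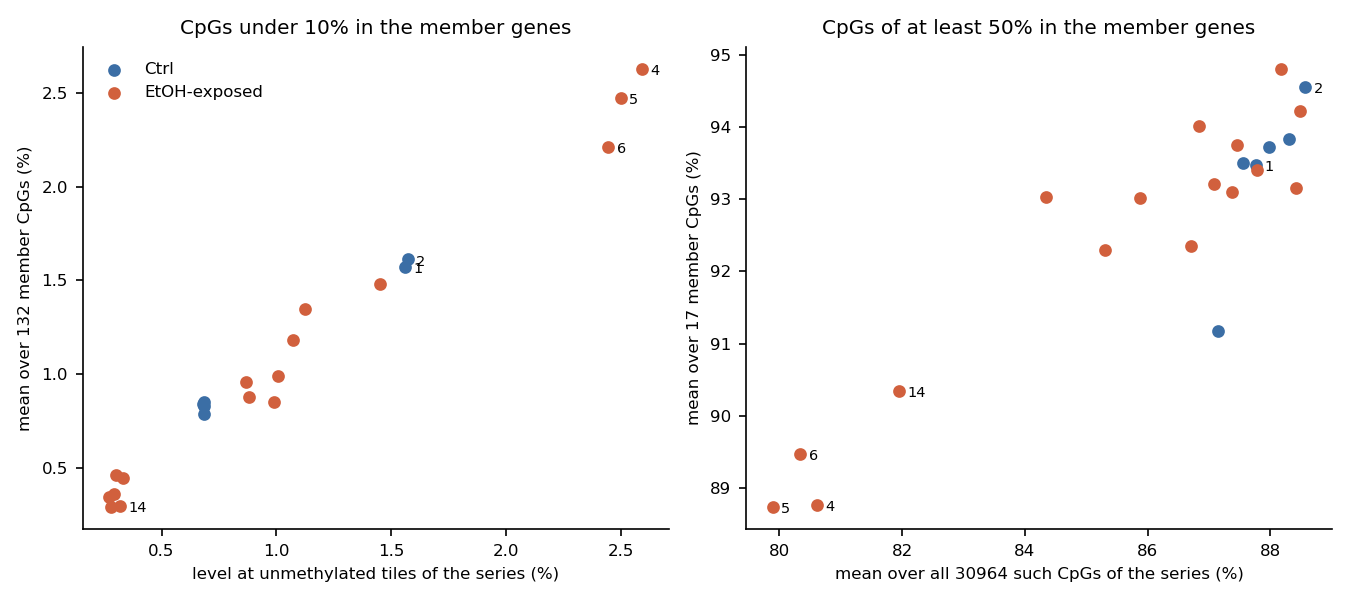
Left, the mean level in percent of the 132 unmethylated member CpGs of each sample (vertical axis) against the level of its library at unmethylated tiles (horizontal axis). Right, the mean level in percent of the 17 methylated member CpGs (vertical axis) against that of all 30964 methylated CpGs of the series (horizontal axis). Each point is 1 Ctrl or EtOH-exposed sample, and EtOH-exposed samples 4, 5 and 6 lie highest on the left, at 2.21 to 2.63%, and at 88.7 to 89.5% on the right, where the mean includes the Dnmt1 CpG chr9:20908571.

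To compare the spread between embryos, the SD of each tile was taken within each group. The SD of EtOH-exposed samples exceeded that of Ctrl samples in 28 of 37 tiles at 50% or more (78.0% of all such tiles in the series did) and in 51 of 59 tiles under 50% (77.0% of all). It was at least 2 times as large in 14 of the 37 (37.1% of all). The median SD over the 37 tiles was 2.11 points in Ctrl and 3.43 points in EtOH-exposed samples, against 2.66 and 4.32 points over all such tiles. Libraries were also grouped by their level at unmethylated tiles, with a new group opened where the next level was over 1.3 times as high. Controls in the group so formed ranged from 0.683 to 1.57%, so its libraries are not matched in level. With a smaller ratio, Ctrl samples 3, 4, 5 and 6 fell in a group without EtOH-exposed samples. With only the EtOH-exposed samples of the group that holds all controls, which has 7 of them, the count was 18 of 37 (48.6%, against 58.9% of all such tiles at this setting), and without EtOH-exposed samples 4, 5 and 6 it was 22 of 37 (59.5%, against 67.1%). The counts are given as a description, with no test.

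The other genes of the same machinery were looked at by counts. A list of 40 further genes, with factors that bind or read methylation, base excision repair genes and genes of the methyl donor cycle, had 242 tiles in 37 genes, and 0 were called by the logistic test (background 1.14%). Their weighted differences ran from -9.06 to 2.49 points. Of the 242 tiles, 73 had a q under 0.01 alone (30.2%, against 21.8% of all tiles), 9 an unadjusted p under 0.05 with overdispersion (3.72%, against 5.77% of all) and 5 with limma (2.07%, against 4.45%).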

How the data were processed

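rRRBS was measured in 22 forebrains, 6 Ctrl and 16 EtOH-exposed, grouped by the labels' exposure. Per the labels, the authors trimmed reads with Trim Galore 0.3.3 and aligned them to mm10 with BSMAP 2.90, named in the submitters' processing notes. The deposited counts are the reads covering each cytosine of a CpG on each strand, with no normalization. The deposited percent values are the share of these reads that were methylated. The number of methylated reads was recovered from the product of coverage and percent, as the nearest whole number.

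A strand of a CpG was kept with at least 10 reads, and strands were added. The 100 bp tiles of chromosomes 1 to 19 needed at least 2 CpGs and 5 samples per condition. Each tile was tested with a logistic likelihood-ratio test, with Benjamini-Hochberg adjustment over all tiles. Promoters (1000 bp upstream to 100 bp downstream of a RefSeq start, with starts within 500 bp merged) and gene bodies needed at least 3 CpGs. They were tested with limma 3.58.1 on log2 ratios of methylated to unmethylated reads, with 0.5 added, over all genes. Levels of regions are means over CpGs. For per-embryo values, the test was an exact permutation test, two-sided (74613 splits where all samples had a value), and 95% intervals are the shifts these tests do not reject. They reflect the spread between samples. PCR copies were not told apart from separate molecules, so read numbers overstate precision.

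The 10 genes and the gene lists were chosen with earlier results of these data known. Named tiles are those with the largest absolute weighted difference of each gene. The tests were checked on simulated data. Alternatives concerned the model of the spread, the coverage minimum (5 or 20 reads), CpGs and samples required, CpGs of CCGG sites, the promoter window, region levels, leaving out samples, library groups and a replicate block. Single CpGs, single strands, the settings of the named tiles and of the spread between embryos, gene bodies without Ctrl sample 6, and the Dnmt1 intron 16 tile, gene bodies and CpG means without EtOH-exposed samples 4, 5 and 6 were added after seeing the data. Same-numbered Ctrl and EtOH-exposed samples did not deviate together, so they were not paired. Computations used Python 3.11.15, numpy 2.4.6, pandas 2.3.3, scipy 1.17.1, matplotlib 3.10.9 and R 4.3.3. Chromosomes X and Y were not analysed here.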

Additional observations from a re-analysis of the deposited data

Results flagged for a closer look

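Among 35 sets of Ctrl values tested for a sample far from the other 5 (Dixon's test, for which chance marks about 1 in 20 sets), 5 were marked, all at CpGs in at least 5 samples per condition. Ctrl sample 2 lay at 3.26% at the downstream promoter of Uhrf1, where the others lay at 0.440 to 1.17%, on 14 of 36 CpGs. It also lay at 19.4% in the body of Dnmt3b (others 21.8 to 22.7%, on 21 of 22 CpGs) and at 85.2% in the body of Tet3 (others 91.3 to 94.2%, on 9 of 32 CpGs). Ctrl sample 6 lay at 67.6% in the body of Dnmt3a (others 36.1 to 43.6%, on 22 of 50 CpGs) and at 95.3% in the body of Uhrf1 (others 77.6 to 83.2%, on 20 of 23 CpGs). In each case the sample lacked CpGs of the region that other samples had, and the part of these CpGs in the values was not tested.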

How the results depend on the processing

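The count of called member tiles was 0 under all 39 alternatives tried. Of the 38 that tested tiles, 2 (the overdispersion F test and limma) called 0 in the whole series too and the others 101 to 4818, with 26 to 139 member tiles tested, and single CpGs gave 0 of 501. Calls of promoters and of gene bodies were 0 in 32 of 33 alternatives each. At the main setting limma called 0 of 6234 promoters and 0 of 6845 bodies over all genes too, so counts of 0 say little about the member genes. The alternative with levels as methylated reads over all reads kept the p-values of the main setting, so its calls were fixed. The exception was the logistic test of summed reads, which estimates no spread between embryos: it called 1 of 4 promoters (1945 of 6234 over all genes) and 3 of 4 bodies (3394 of 6845). Leaving out each sample in turn gave 0 called tiles, promoters, bodies and level differences every time, although only 36 to 67 of the 96 tiles could be tested without a Ctrl sample (36 without Ctrl sample 1, 3 or 5), and 25 to 30 of 37 tiles with the larger SD in EtOH-exposed samples, against 18 within the library group of the controls. Level differences passed in 0 of 8 regions, in 2 of 18 with CpGs in at least 5 samples per condition (Dnmt3a body -11.6 and Tet1 body -4.21 points, the latter missing the threshold without EtOH-exposed samples 4, 5 and 6 at -3.54) and in 1 of 8 without EtOH-exposed samples 4, 5 and 6 (Dnmt3b body, -0.654 points). The sign of the Tet1 body turned from 0.597 to -4.21 points when its 51 CpGs in at least 5 samples per condition took the place of the 3 in all samples. The other signs that turned were those of differences under 1 point, except for the Tet2 and Tet3 tiles, and the causes were not tested. Without Ctrl sample 6, with CpGs in at least 5 samples per condition, they were the Tet2 body (0.796 to -1.79) and the Tet3 body (-0.258 to 0.366). Without EtOH-exposed samples 4, 5 and 6 they were the Dnmt3a promoter at -0.183, Tet3 promoter at -0.144, Dnmt1 body at 0.194, Trim28 tile at -0.121 and Zfp57 tile at -0.087. Within the library group of the controls they were the Dnmt1 body at 0.567 and the Tet2 tile at 0.193. The Dnmt1 promoter turned to 0.0194 with CpGs in at least 5 samples per condition, the Dnmt3a promoter to -0.152 with 5 reads per CpG and the Dnmt1 body to 1.15 without CpGs of CCGG sites. Leaving out single samples gave ranges of -0.141 to 0.124 (Dnmt1 promoter), -0.189 to 0.0329 (Tet2 promoter), -6.80 to 0.798 (Tet3 tile) and -0.0688 to 0.162 (Trim28 tile). Samples with the same number did not deviate together (correlations of -0.183 to 0.0699 over 6 pairs and 13079 regions), and 1 of 6 correlated best with its own number. With the replicate number as a block over samples 1 to 6 of both groups, 0 tiles, promoters and bodies were called. Level differences were tested in the same 12 samples without a block, and 0 passed. The Dnmt1 promoter was at 0.311, the Tet2 promoter at 0.200 and the Dnmt3b body at 0.254 in these 12 samples. With only the EtOH-exposed samples of the library group of the controls, weighted differences of other named tiles were -0.249 in Dnmt1, -3.98 in Dnmt3a, -0.0255 in Dnmt3b, -1.32 in Tet1, -6.46 in Uhrf1 and -9.62 in Tet3. Leaving out 1 sample moved those of Dnmt3a to -4.77 and Tet1 to -3.33 (both without Ctrl sample 2), of Uhrf1 to -4.92 (without EtOH-exposed sample 1), and of Tet1 and Uhrf1 to -0.845 and -1.21 (without EtOH-exposed sample 7).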
